A study of Mus musculus with 44 samples.

Results

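Wfs1, Fibcd1, Mpped1, Pou3f1 and Man1a are transcripts that mark pyramidal neurons of hippocampal area CA1, and their levels were followed through 20 libraries of ribosome-bound mRNA from mouse hippocampus. The 5 genes were taken by name from the 55335 gene rows of the count table, and each name matched 1 row. All libraries came from male Emx1-NuTRAP mice, which carry Emx1-IRES-Cre and the NuTRAP reporter, so that translating ribosome affinity purification (TRAP) through the green fluorescent tag on ribosomes recovers mRNA from cells in which Emx1-Cre has been active. These are mostly excitatory neurons, but Emx1-Cre also acts in neural progenitors, and astrocyte and oligodendrocyte transcripts were present here. Early-life exercise (ELE) mice had running wheels from postnatal day 21 to 41, and sedentary mice lived in standard cages. Simultaneous INTACT and TRAP (SIT) used both hippocampi of a mouse combined in 1 homogenate (4 ELE and 4 sedentary libraries), whereas separate isolations used the left or the right hippocampus alone (3 ELE and 3 sedentary libraries from each side, every library from another mouse). The whole hippocampus was used, with no dissection of CA1, so the restriction of these transcripts to CA1 could not be checked in these libraries.

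Area CA1 is the output field of the hippocampal circuit, receives the Schaffer collaterals of CA3 pyramidal neurons, and is central to spatial and contextual memory. Its pyramidal neurons are told apart from granule cells of the dentate gyrus and from CA2 and CA3 neurons by a small set of transcripts. Wfs1 encodes wolframin, a membrane protein of the endoplasmic reticulum linked to calcium handling and the unfolded protein response, which is strongest in dorsal CA1. Fibcd1 encodes a transmembrane receptor that binds acetylated sugars, Mpped1 encodes a metallophosphoesterase domain protein, Pou3f1 encodes a POU-family transcription factor also named Oct6, and Man1a encodes a Golgi alpha-mannosidase that trims N-linked glycans.

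On GRCm38 with GENCODE vM21 gene models, Wfs1 (ENSMUSG00000039474.13) lies on chromosome 5 from 36966104 to 36989205 on the reverse strand. Fibcd1 (ENSMUSG00000026841.7) lies on chromosome 2 from 31813290 to 31846005, also on the reverse strand. Mpped1 (ENSMUSG00000041708.12) lies on chromosome 15 from 83779467 to 83858494 on the forward strand. Pou3f1 (ENSMUSG00000090125.3) is a gene of 1 exon on the forward strand of chromosome 4, from 124656807 to 124660655. Man1a (ENSMUSG00000003746.16) lies on chromosome 10 from 53904785 to 54076609 on the reverse strand. All 5 are protein-coding, and a count covers the exons of a gene, UTRs included. Pou3f1 shares 330 exonic bases with the antisense gene Gm2164, and Man1a shares 147 with Gm16998 on the opposite strand; the counting used strand.

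Libraries held between 45895097 and 65767802 counts (median 54422374.5), and no member had fewer than 2538 counts in a library, so counting error was at most 1.98% of a value. Levels are given as CPM, the count scaled to the TMM-adjusted total of the library, and levels per length as RPKM. Among sedentary SIT mice, NT7.2.3 stood apart together with NT7.2.4. Mitochondrial transcripts took 8.64% and 9.64% of their normalised counts, against at most 0.523% elsewhere, and their summed interneuron markers reached 737 to 783 CPM against at most 104 CPM in the other 18 libraries. These 2 libraries and the ELE SIT library of mouse NT6.304 were set aside in the main comparisons, leaving 17 libraries. The choice was that of the study. Among the 17 libraries, excitatory markers were abundant (Slc17a7, Camk2a, Neurod6, Emx1 and Neurod2 summed to 6518 CPM or more), interneuron markers summed to at most 71.9 CPM and microglial markers to at most 5.30 CPM. Of glial transcripts, astrocyte markers summed to between 549 and 1259 CPM, and Mbp, which encodes a myelin protein of oligodendrocytes, was at 1088 to 2057 CPM in the 18 libraries other than NT7.2.3 and NT7.2.4.

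Per exonic length, 4 of the 5 transcripts were among the more abundant in the libraries and Man1a was not. Averaged over 17 libraries, the level per length was 62.9 ± 7.25 RPKM for Mpped1, 53.6 ± 11.2 RPKM for Wfs1, 48.7 ± 5.64 RPKM for Fibcd1, 38.6 ± 3.73 RPKM for Pou3f1 and 7.002 ± 1.14 RPKM for Man1a (SD, n = 17). Among the 14113 genes averaging 1 CPM or more, Mpped1 ranked 825th, Wfs1 984th, Fibcd1 1113th, Pou3f1 1437th and Man1a 5935th. The order held for most neighbours but not for all libraries. Mpped1 was above Wfs1 in 15 of 17 libraries, and Fibcd1 was above Pou3f1 in 16 of 17. Wfs1 and Fibcd1 were not separated, with Wfs1 above Fibcd1 in 11 of 17 libraries and a ratio per length between 0.792 and 1.73. Pou3f1 exceeded Man1a in 17 of 17 libraries, by 4.34-fold or more.

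**Figure D1:**
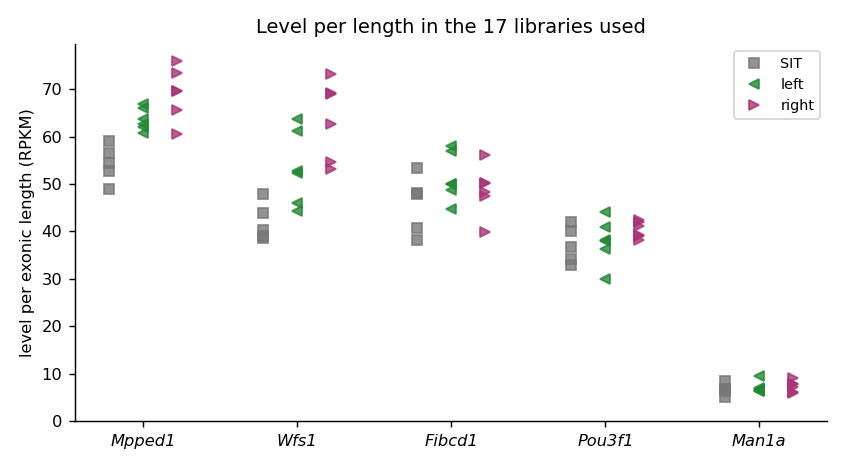
Level per exonic length (RPKM, vertical axis) of each member (horizontal axis) in the 17 libraries used, with 1 point a library: grey squares for SIT, green left-pointing triangles for left and purple right-pointing triangles for right hippocampus. Wfs1 and Mpped1 sit lower in the SIT libraries, Wfs1 and Fibcd1 overlap, and Man1a lies far below the other members.

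The members differed in how much they varied. Wfs1 had the widest relative spread over the 17 libraries, with a coefficient of variation of 20.8%, and 93.0% of the 1145 genes within 1.5-fold of its level varied less. Man1a followed with 16.3%, above 83.3% of the genes near its level. The spread of Wfs1 includes the differences between sets, and within each set Man1a varied more, with coefficients of 17.7% against 9.45% for Wfs1 in SIT, 17.3% against 14.7% on the left and 15.6% against 12.9% on the right. Fibcd1 (11.6%), Mpped1 (11.5%) and Pou3f1 (9.66%) were close to genes of like level, whose median was between 10.6% and 10.9%.

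Each transcript was then compared between isolation methods, which asks whether its recovered level depends on how the mRNA was purified. Wfs1 and Mpped1 were lower in simultaneous than in separate isolations, whereas Fibcd1, Pou3f1 and Man1a did not pass the test. In the 5 SIT libraries used, Wfs1 stood at 146, 148 and 166 CPM in ELE and at 152 and 181 CPM in sedentary mice, against 168 to 277 CPM (median 219.7) in the 12 separate libraries. The ranges overlapped through the highest SIT library, which stood above the lowest 2 left libraries. With exercise in the model, Wfs1 fell by 0.48 ± 0.099 on the log2 scale (SE; edgeR quasi-likelihood test, adjusted p = 0.00111), with a 95% interval from -0.69 to -0.28. Mpped1 was at 211 to 254 CPM in the 5 SIT libraries and at 259.9 to 326 CPM in the 12 separate libraries, and these ranges did not overlap. Its log2 change was -0.28 ± 0.056 (SE; edgeR, adjusted p = 8.98e-04), a change below the 1.3-fold size used for a call.

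By that call, an unadjusted p under 0.05 with a change over 1.3-fold, 1 of 5 members (Wfs1) differed between isolations, beside 15.0% of the 18843 genes tested, and it was lower, as were 9.79%. At an adjusted p under 0.05 the count was 2 of 5 (Wfs1 and Mpped1), beside 25.5% of all genes tested. The remaining log2 changes were -0.11 ± 0.071 for Fibcd1, -0.06 ± 0.072 for Pou3f1 and -0.14 ± 0.10 for Man1a (SE; edgeR, adjusted p between 0.285 and 0.603). The median change of the members was -0.14, beside -0.0090 over all genes tested. Leaving out any 1 library, changing the scaling or the test, or taking all 8 SIT libraries kept the call for Wfs1 in 21 of 21 alternatives, with log2 changes from -0.58 to -0.43. Fibcd1 reached an adjusted p of 0.0279 without the SIT library of mouse TG7.4.2 (log2 change -0.20) and a log2 change of -0.25 with all 8 SIT libraries (adjusted p = 0.0550), without a call. The isolation methods also differed in the mice and in the use of 1 or both hippocampi, and these cannot be told apart from the method.

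Other cell markers moved with the isolation method. All 4 astrocyte markers were lower in SIT (median log2 change -0.62), 3 of 5 interneuron markers were higher, and of 8 dentate granule markers 2 were higher and none lower. Of the 5 general excitatory markers, 1 was called, Camk2a, a kinase subunit of excitatory synapses, with a log2 change of -0.60 ± 0.087 (SE; edgeR, adjusted p = 3.61e-05). The log2 changes of these 5 markers ran from -0.60 to 0.32 (median -0.09), and 3 had an edgeR adjusted p under 0.05. None of the 4 other CA1 genes, among them Spink8, Ndst4 and Crym, was called, and their median log2 change was 0.0063. These other CA1 genes summed to 206 to 242 CPM in the SIT libraries used and to 164 to 248 CPM in separate libraries. In sums, astrocyte markers were at 549 to 915 CPM in SIT and 982 to 1259 CPM in separate libraries, and excitatory markers at 6518 to 7627 and 7870 to 9974 CPM. The part of these shifts in the change of Wfs1 and Mpped1 was not tested. In bulk libraries, fewer CA1 cells in the pull-down and less mRNA per cell cannot be told apart.

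**Figure D2:**
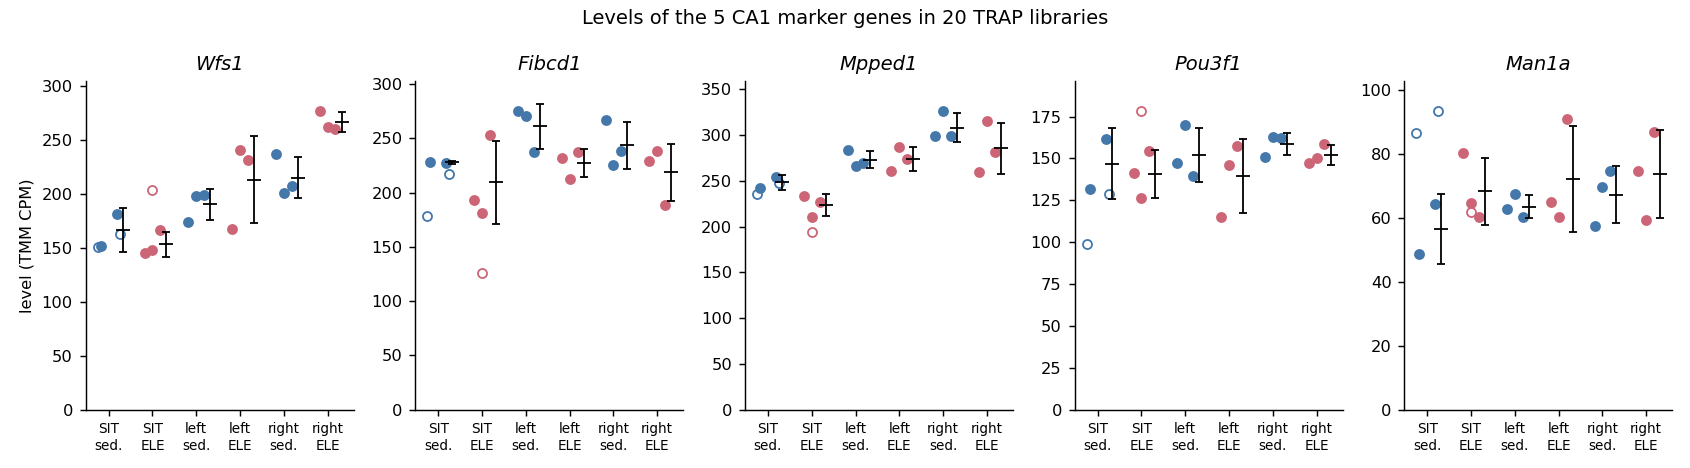
Level (TMM CPM, vertical axis, from 0) of each member by group (horizontal axis), with 1 point a library, blue for sedentary and red for ELE, and open points for the 3 SIT libraries set aside. Black bars give the mean ± SD of the filled points; the Wfs1 means are lowest in SIT and highest in right-hippocampus libraries, and its 3 right ELE points lie above all 3 right sedentary points.

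ELE was compared with sedentary housing in the simultaneous isolations, which asks how adolescent running changes the mRNA bound to ribosomes of Emx1-lineage cells. The ELE libraries used were NT6.303, TG7.4.1 and TG7.4.2, and the sedentary ones were NT6.305 and NT6.306. No sedentary library used carried a TG7.4 number, so exercise and the group of mouse numbers cannot be fully told apart here. None of the 5 members was called, beside 3.73% of the 18238 genes tested. The edgeR adjusted p was under 0.05 for no member and for no gene, where 1000 genes had an unadjusted p under 0.05, and DESeq2 gave 14 genes with an adjusted p under 0.05. The members' median log2 change was -0.12, beside 0.0012 over all genes tested. Wfs1, Fibcd1, Mpped1 and Pou3f1 had log2 changes from -0.15 to -0.06, and Man1a had 0.27 ± 0.16 (SE, unadjusted p = 0.113 in edgeR). Mpped1 gave the clearest separation, at 211, 226 and 234 CPM in ELE against 243 and 254 CPM in sedentary mice. No ELE value reached the lowest sedentary one, and the log2 difference was -0.15 with an exact two-sided permutation p of 0.20, where 3 against 2 allows nothing below 0.10.

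Apart from Mpped1, the members overlapped between ELE and sedentary SIT mice. The share of all genes without overlap was not counted in the SIT, left or right comparison, so a member without overlap has no background beside it. Fibcd1 was at 181, 194 and 253 CPM in ELE and at 227 and 229 CPM in sedentary mice, so that 1 ELE library was above and 2 were below both sedentary libraries. Pou3f1 was at 126, 141 and 155 CPM in ELE and at 132 and 162 CPM in sedentary mice. Man1a was at 60.4, 64.6 and 80.3 CPM in ELE and at 48.8 and 64.3 CPM in sedentary mice, with the highest ELE library from mouse NT6.303. The 95% intervals of Wfs1, Mpped1 and Pou3f1 stayed within 1.3-fold in both directions, whereas that of Man1a reached 0.63 on the log2 scale. Man1a passed the call without the sedentary library of mouse NT6.306, at a log2 change of 0.49. That fit leaves 1 sedentary library, NT6.305, which had the lowest Man1a of all 20 libraries (48.8 CPM). The adjusted p of Man1a over 12 alternatives (11 with edgeR and 1 with DESeq2) ran from 0.446 to 0.9999. Fibcd1 moved to -0.28 (unadjusted p = 0.00760) without the ELE library of mouse TG7.4.2, the highest of its group, to -0.027 without that of TG7.4.1, and to -0.51 (unadjusted p = 0.0560) within the 4 mice numbered NT6, which brings back NT6.304.

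The libraries set aside pulled several members away from the other SIT values. NT6.304 had the lowest Fibcd1 of all 20 libraries, at 126 CPM, together with the lowest Mpped1 (195 CPM), the highest Pou3f1 (178 CPM) and a Wfs1 of 204 CPM above the other 7 SIT libraries. NT7.2.3 had the lowest Pou3f1, at 99.1 CPM, and its Man1a of 86.6 CPM was exceeded among SIT libraries only by NT7.2.4, at 93.5 CPM. With all 8 libraries, the direction of 3 members turned, to 0.05 for Wfs1, 0.21 for Pou3f1 and -0.12 for Man1a on the log2 scale. Mpped1 stayed lower in ELE with all 8, where 4 ELE libraries at 195 to 234 CPM lay below 4 sedentary libraries at 235 to 254 CPM (log2 difference -0.18, exact two-sided permutation p = 0.0286, the smallest that 4 against 4 can give). The gap between the nearest of these libraries was that between 233.9 and 235.2 CPM, and the adjusted p of Mpped1 over 12 alternatives (11 with edgeR and 1 with DESeq2) was between 0.533 and 0.9999.

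Transcripts of other cells also moved between ELE and sedentary SIT mice. Of 8 dentate granule genes, 3 were called higher in ELE and none lower (median log2 change 0.39), and of 6 choroid plexus genes 4 were called lower. The summed dentate granule list was 715 to 916 CPM in ELE and 614 to 767 CPM in sedentary mice. The ratio of the summed members to that list was 1.01 ± 0.204 in ELE (SD, n = 3) and 1.23 ± 0.106 in sedentary mice (SD, n = 2), with overlapping values. The part of these shifts in the members' values was not tested.

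In the left hippocampus no member was called, beside 2.12% of the 17750 genes tested. Fibcd1 was lower in the ELE libraries, at 213, 232 and 237.468 CPM against 237.469, 270.3 and 275 CPM in sedentary mice. The groups touched without overlapping, and the log2 change was -0.20 ± 0.084 (SE; edgeR, unadjusted p = 0.0415, adjusted p = 0.960), under 1.3-fold. The exact permutation p was 0.10, which is the smallest that 3 against 3 can give. Wfs1 was at 168, 232 and 241 CPM in ELE and at 174, 198 and 199.5 CPM in sedentary mice, so that 2 ELE libraries were above and 1 was below all sedentary libraries. Mpped1 was nearly the same in both groups, at 274 ± 13.3 and 273 ± 9.22 CPM (SD, n = 3 each), with a 95% interval of its log2 change from -0.16 to 0.16. Pou3f1 and Man1a overlapped between the groups, with log2 changes of -0.13 ± 0.13 and 0.18 ± 0.15 (SE). The members' median was 0.00085, beside 0.0035 over all genes tested. Without the ELE library of mouse TG7.3.2, which had the lowest Wfs1 of the separate libraries, Wfs1 was 0.31 ± 0.090 higher in ELE (SE; edgeR, unadjusted p = 0.00984, adjusted p = 0.643).

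In the right hippocampus Wfs1 was higher in ELE, and it was the member with the largest difference. Its level was 261, 262 and 277 CPM in ELE against 202, 207 and 237 CPM in sedentary mice, with no overlap. The log2 change was 0.31 ± 0.091 (SE; edgeR, unadjusted p = 0.00644, adjusted p = 0.9998), with a 95% interval from 0.11 to 0.51, and the exact permutation p was 0.10, the smallest the design allows. The change was under 1.3-fold, so 0 of 5 members were called, beside 2.00% of the 17570 genes tested, and the members' median was -0.059, beside -0.0049 over all genes. Without the sedentary library of mouse TG7.3.3, the highest of its group, Wfs1 passed the call with a log2 change of 0.39, and its adjusted p over 10 alternatives (9 with edgeR and 1 with DESeq2) was between 0.635 and 0.99998.

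The other 4 members had right-hippocampus log2 changes from -0.15 to 0.13, and their groups overlapped. Fibcd1 was at 189, 229.7 and 238 CPM in ELE and at 225, 238 and 267 CPM in sedentary mice. Mpped1 was at 259.9, 282 and 315 CPM in ELE and at 299.01, 299.19 and 326 CPM in sedentary mice. Pou3f1 varied least, at 152 ± 5.76 and 159 ± 6.63 CPM (SD, n = 3 each), and its 95% interval, from -0.24 to 0.12 on the log2 scale, stayed within 1.3-fold. Man1a was at 59.3, 74.8 and 87.0 CPM in ELE and at 57.4, 69.7 and 74.8 CPM in sedentary mice.

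Fitting both hemispheres together with side in the model, Wfs1 was 0.24 ± 0.084 higher and Fibcd1 0.18 ± 0.069 lower in ELE on the log2 scale, at unadjusted edgeR p of 0.0139 and 0.0215. Both had an adjusted p of 0.902 and a change under 1.3-fold, so that no member was called, beside 2.00% of the 18283 genes tested. These are the same libraries as in the left and right comparisons, so they add no independent evidence. Without the left ELE library of mouse TG7.3.2 the Wfs1 change was 0.31 (edgeR, unadjusted p = 0.000149, adjusted p = 0.347). In the simultaneous isolations the Wfs1 value was -0.12 ± 0.11 (SE), did not pass the test and had no stable sign (0.011 without NT6.306, 0.046 with all 8 libraries), and whether the response differed between isolation methods was not tested. A difference between hemispheres in the response to ELE was not detected for any member: the interaction gave log2 differences from -0.15 to 0.11 (edgeR, unadjusted p from 0.361 to 0.840), 0 of 5 called beside 2.21% of the 18810 genes tested. Its 95% intervals stayed within 1.3-fold for Fibcd1 and Mpped1 only, and that of Wfs1 ran from -0.52 to 0.22.

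**Figure D3:**
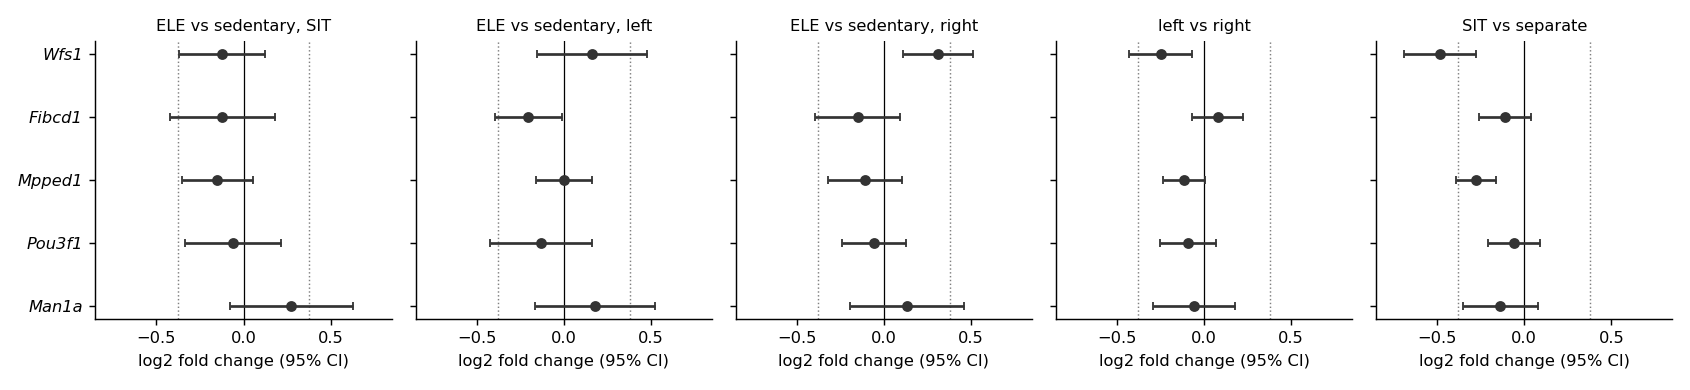
Log2 fold change (horizontal axis) of each member with its 95% interval from edgeR in 5 comparisons, 1 panel each. Dotted lines mark 1.3-fold in each direction; 1 point, Wfs1 in SIT against separate isolations, lies beyond them.

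Left and right hippocampi were compared in the 12 separate libraries with exercise in the model, which asks about differences between hemispheres. None of the 5 members was called, beside 1.15% of the 18283 genes tested. Wfs1 was lower on the left, at 168 to 241 CPM against 202 to 277 CPM on the right, with 1 left library below 170 CPM and overlap between the sides. Choroid plexus transcripts had a median log2 change of 2.21, left against right, with 1 of 6 called, and their part in the Wfs1 value was not tested. Its log2 change was -0.25 ± 0.084 (SE; edgeR, unadjusted p = 0.00992, adjusted p = 0.9999). Mpped1 was at 261 to 287 CPM on the left and at 259.9 to 326 CPM on the right (log2 change -0.12 ± 0.056, SE), and the log2 changes of Fibcd1, Pou3f1 and Man1a lay between -0.09 and 0.08. The 95% intervals of 4 members stayed within 1.3-fold, and that of Wfs1 reached -0.43.

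Transcripts of the choroid plexus, the epithelium that makes cerebrospinal fluid and lies against the hippocampus, also varied widely between libraries. The 6 listed genes (Ttr, Folr1, Kl, Aqp1, Clic6 and Kcne2) summed to between 17.3 and 84.5 CPM in 8 separate libraries and to between 1019 and 1279 CPM in the other 4. Ttr, which encodes the carrier protein transthyretin, was at 2.26 CPM or more in every library, and Kcne2 was at 0 in at least 1. The high sums were in TG7.3.2 (ELE) and in TG7.3.4, TG9.1.2 and TG9.2.3 (sedentary), and 3 of these 4 were left libraries. Wfs1 was at 168, 174, 198 and 207 CPM in these 4 libraries. It was at 199.5 to 277 CPM (median 239) in the 8 with the low sums. The 5 SIT libraries used did not show this order, with sums of 129, 236, 579, 592 and 674 CPM beside Wfs1 at 146, 148, 166, 152 and 181 CPM. In the separate libraries Fibcd1 was at 232 to 275 CPM (median 254) with high sums and at 189 to 267 CPM (median 234) with low sums. The left sedentary libraries TG7.3.4 and TG9.1.2, both with high sums, had Fibcd1 at 275 and 270.3 CPM, and left ELE TG7.3.2 had 232 CPM. The part of these transcripts in the Fibcd1 values was not tested. All 3 right ELE libraries had low sums (17.3 to 42.9 CPM), whereas right sedentary libraries had 35.3, 84.5 and 1168 CPM. In the right hippocampus 5 choroid plexus genes could be tested and 5 were called lower in ELE. Without the right sedentary library with the high sum, that of mouse TG9.2.3, the log2 change of Wfs1 was 0.28 ± 0.10 (SE, edgeR unadjusted p = 0.0219, adjusted p = 0.9995). Within the 8 libraries with low sums, Pearson's r of Wfs1 with the sum was -0.47 (exact permutation p = 0.238) and Spearman's rho was -0.43 (exact permutation p = 0.299), and r was 0.13 without the 2 libraries farthest from the median sum.

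The summed ventral hippocampus and subiculum list (Dcn, Nr2f2, Htr2c, Fn1, Nts and Slc17a6) was also set against Wfs1, and the relation did not pass the correction. Across the 12 separate libraries Pearson's r with Wfs1 was -0.63 (permutation p = 0.0298, adjusted p = 0.444 over 15 relations of members with 3 lists) and Spearman's rho was -0.57 (permutation p = 0.0583, adjusted p = 0.637). It was -0.67 among the 6 left and -0.68 among the 6 right libraries, and -0.42 without the 2 libraries farthest from the median of the sum. The right ELE sums were 60.2, 76.6 and 132 CPM and the right sedentary sums were 85.8, 139.8 and 139.8 CPM. In the 5 SIT libraries used the order was another: the sums were 85.8 and 108 CPM where Wfs1 was at 148 and 146 CPM, and 125, 133 and 148 CPM where it was at 166, 181 and 152 CPM. In the separate libraries the other members had r between -0.53 and 0.33 with this list and none of the 15 relations passed the correction. These 3 lists were set against the members after the values had been seen. Whether the lists mark separate cell populations was not tested, nor was their part in the change of Wfs1.

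**Figure D4:**
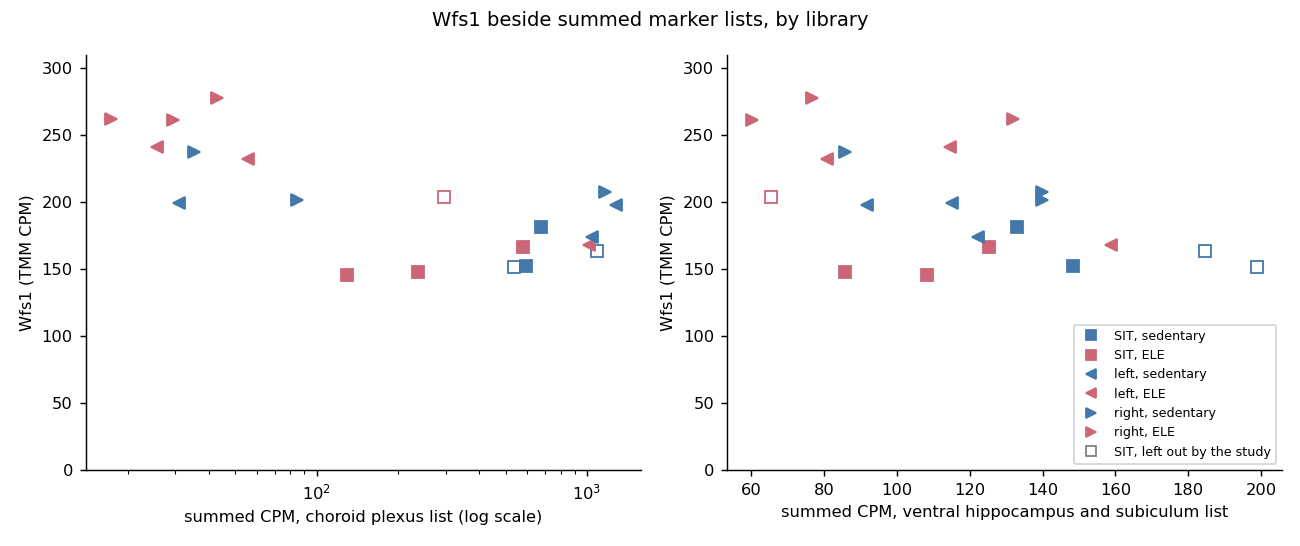
Wfs1 (TMM CPM, vertical axis, from 0) against the summed CPM of choroid plexus markers (left panel, log scale) and of ventral hippocampus and subiculum markers (right panel, linear scale), with 1 point a library. Squares are SIT, left- and right-pointing triangles are left and right hippocampus, blue is sedentary, red is ELE, and open squares were set aside; the 4 separate libraries with choroid plexus sums over 1000 CPM have Wfs1 at 168 to 207 CPM.

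The members did not covary as a group. Over all 20 libraries, centred on the mean of their set (SIT, left or right), Pearson's r of log2(CPM + 0.5) for the 10 pairs of members ran from -0.35 to 0.56, and 7 of the 10 were negative. Without the 3 SIT libraries set aside 4 of the 10 were negative, and Fibcd1 with Pou3f1 turned from -0.05 to 0.35, Mpped1 with Pou3f1 from -0.10 to 0.38 and Pou3f1 with Man1a from -0.17 to 0.28. Fibcd1 and Mpped1 were the most alike (r = 0.56, permutation p = 0.0304, adjusted p = 0.257; rho = 0.41, permutation p = 0.0956), followed by Wfs1 and Pou3f1 (r = 0.45, permutation p = 0.0514, adjusted p = 0.257; rho = 0.30, permutation p = 0.216). Wfs1 and Fibcd1 had the lowest r, at -0.35 (permutation p = 0.120, adjusted p = 0.3996), which became 0.05 without the 2 libraries farthest from the median of Wfs1. No pair passed the correction over 10 pairs in the 20 libraries, in the 8 SIT libraries or in the 12 separate libraries.

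The same pairs are given within each set, and the difference in r between sets was not tested. In the 8 SIT libraries r was 0.78 for Fibcd1 and Mpped1 (exact permutation p = 0.0246, adjusted p = 0.156; rho = 0.48, exact permutation p = 0.243) and 0.75 for Wfs1 and Pou3f1 (exact permutation p = 0.0312, adjusted p = 0.156; rho = 0.71), the latter 0.35 without the 2 libraries farthest from the median of Wfs1. In the 12 separate libraries the same pairs had r of -0.04 and 0.36 (rho 0.077 and 0.11). Without the 3 SIT libraries set aside, r over 17 libraries was 0.28 for Fibcd1 and Mpped1 and 0.34 for Wfs1 and Pou3f1, while that of Wfs1 and Fibcd1 moved from -0.35 to -0.11. The largest absolute r over the 17 was that of Fibcd1 and Man1a, at -0.47 (permutation p = 0.0809, adjusted p = 0.404; rho = -0.49). Among all genes averaging 1 CPM or more over the 20 libraries, Fibcd1 stood at percentile 98.6 of r with Mpped1, and Mpped1 at 91.7 with Fibcd1. Pou3f1 stood at percentile 94.1 with Wfs1, and Wfs1 at 88.9 with Pou3f1. All other pairs stood between percentiles 11.3 and 53.8. The genes most like each member were sought among 14210 named genes that leave out the members. They were Zfpm1, Chgb and Tubb4a for Wfs1 (r = 0.81 each), Syt3, Slc25a18 and G6pc3 for Fibcd1 (r from 0.89 to 0.91), and Tacr3, St6gal1 and Sirt5 for Mpped1 (r from 0.76 to 0.77). For Pou3f1 they included Gm12372 (r = 0.83) and Tlnrd1 (r = 0.82), and for Man1a they were Slc16a7, Scai and Thoc2 (r from 0.88 to 0.89). These points share libraries and scaling, and r of these Pou3f1 genes was 0.62 and 0.58 in the 17 libraries used.

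**Figure D5:**
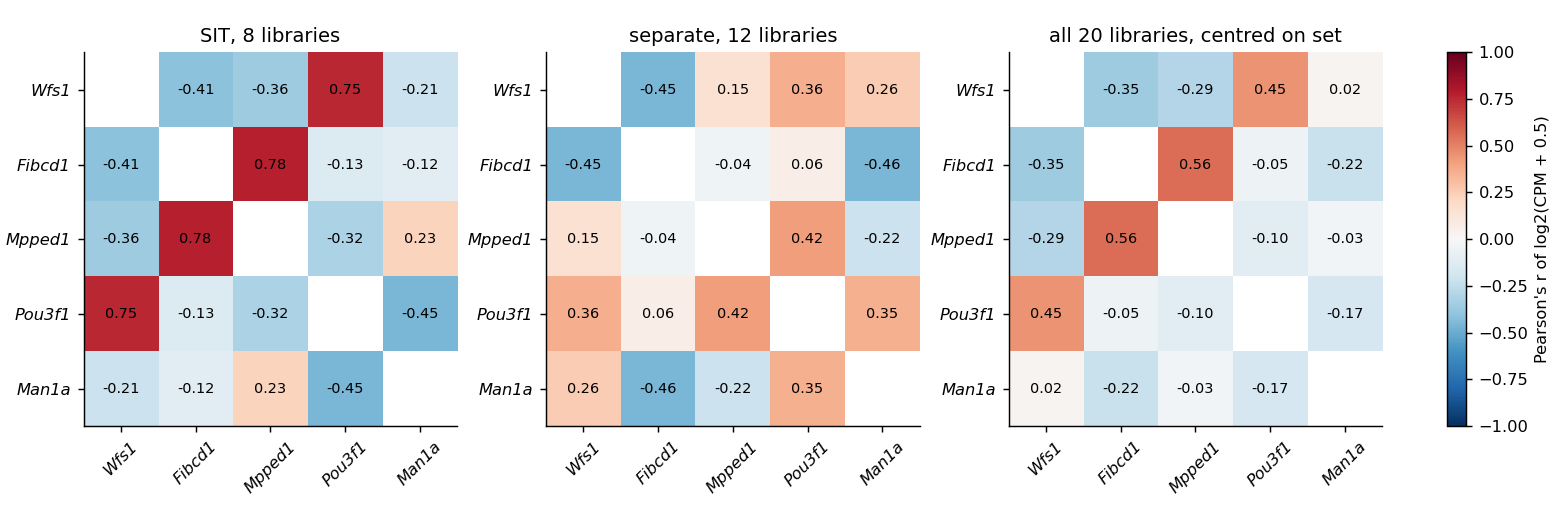
Pearson's r of log2(CPM + 0.5) between members in the 8 SIT libraries, the 12 separate libraries and all 20 libraries centred on their set, with r printed in each cell. Colour runs from blue (-1) to red (1), and the red cells of Fibcd1 with Mpped1 (0.78) and Wfs1 with Pou3f1 (0.75) in SIT are pale in the separate libraries.

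Genes beside the members by region, family or pathway were described from lists. Among other CA1 genes, Spink8, a protease inhibitor, was called higher in ELE in SIT (log2 change 0.79 ± 0.29, SE; edgeR adjusted p = 0.905). Crym, which encodes a thyroid hormone-binding protein, was called lower in the right hippocampus (-0.39 ± 0.14, adjusted p = 0.9998). Crym gave -0.25 ± 0.098 in SIT and -0.25 ± 0.12 in the left hippocampus. The relatives of the members were Cisd2, Mpped2, Pou3f2, Pou3f3, Pou3f4, Man1a2, Man1b1 and Man1c1. Of these 8, 1 was called lower in ELE in SIT (Man1c1, a Golgi mannosidase like Man1a, -0.41 ± 0.17, adjusted p = 0.905), and none in the left or right hippocampus. None of the 8 was called between isolations, although 5 had an edgeR adjusted p under 0.05 (25.5% of all genes did), among them Pou3f3 (-0.37 ± 0.073, adjusted p = 7.56e-04) and Man1a2 (-0.26 ± 0.051, adjusted p = 6.63e-04).

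The endoplasmic reticulum and N-glycan list held 10 genes of the unfolded protein response and of N-glycan processing, pathways to which wolframin and Man1a are linked. None was called between ELE and sedentary mice in SIT, left or right hippocampus, with medians of 0.05, 0.11 and -0.00041 on the log2 scale. Atf6, a sensor of unfolded protein, had unadjusted p under 0.05 in SIT (log2 change 0.36 ± 0.11) and in the right hippocampus (0.25 ± 0.087), each under 1.3-fold and with an edgeR adjusted p of at least 0.905. Between isolations 2 of the 10 were called, beside 15.0% of all genes tested, and 5 had an edgeR adjusted p under 0.05, beside 25.5%. Of the 2 called, Ddit3, a transcription factor of the stress response, was higher in SIT (0.51 ± 0.089, edgeR adjusted p = 2.41e-04). Eif2ak3, the kinase PERK, was lower (-0.42 ± 0.082, edgeR adjusted p = 7.52e-04).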

How the data were processed

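Ribosome-bound mRNA of 20 Emx1-NuTRAP hippocampal samples was analysed. Per the labels and the methods of the study, the authors checked reads with FastQC 0.11.9, aligned them with STAR 2.7.3a to GRCm38.p6, removed duplicates with Picard 1.87, and deposited whole-number counts per gene made with GenomicAlignments using strand. Duplicate removal can lower the counts of abundant transcripts. A second deposited table held 24 columns whose names match no label and was not used.

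Columns are named by mouse, and groups were assigned from the sample sheet of the study. The 5 SIT libraries used here were found as the 1 of 24 possible subsets whose mean normalised counts matched those the authors list, for 633 of 633 genes within a relative tolerance of 0.001 (7 genes for the next best). Columns are separate mice, so p-values measure the spread between these mice. The paper states that mice were pair-housed, so a wheel was shared within a cage. The labels name no cage, and cage was not modelled.

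Genes were named with GENCODE vM21 (55154 of 55335 rows). Counts were scaled by TMM, filtered with filterByExpr and tested with the edgeR 4.0.16 quasi-likelihood test in R 4.3.3, each comparison over all genes passing the filter (all 5 members passed in every comparison). A call needed an unadjusted p under 0.05 and a change over 1.3-fold, and adjusted p are Benjamini-Hochberg over all genes tested. Single members were also tested by two-sided exact permutation of log2(CPM + 0.5), and the scripts were tested on simulated data. Alternatives were DESeq2 1.42.0, median-of-ratios scaling, no filter, each library left out, all SIT libraries, only mice numbered NT6, another pseudocount and a replicate block. The members and gene lists were chosen with earlier results of these data known. The text names the members, up to 4 examples of a list with its counts, and the 3 genes most correlated with each member among those with a mean of at least 1 CPM. Some genes that these rules name are not reported here.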

Additional observations from a re-analysis of the deposited data

How the results depend on the processing

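No member crossed the call threshold in an exercise, hemisphere or interaction comparison under DESeq2, median-of-ratios scaling or no filter on low counts. Over the members' log2 changes, 333 kept their direction and side of the call when 1 library was left out, 15 turned and 2 passed the call; under the other settings 146 kept both, 8 turned and 1 passed. The number of genes called was 681 in SIT (1375 with all 8 libraries, 1196 within mice numbered NT6, 357 to 1122 with 1 library left out). In the left hippocampus it was 376 (566 with DESeq2, 703 without the filter, 225 to 975 with 1 library left out), and in the right hippocampus 351 (719 without the filter, 311 to 657). For both hemispheres it was 366 (622 with DESeq2, 972 without the filter, 302 to 598), for left against right 211 (430, 669, and 196 to 447), for the interaction 416 (1047 without the filter, 357 to 727), and for SIT against separate isolation 2821 (4330 without the filter, 2719 to 2998). The direction in SIT turned with all 8 libraries for Wfs1 (0.046), Pou3f1 (0.21) and Man1a (-0.12), and within the 4 mice numbered NT6, which brings back NT6.304, for Wfs1 (0.069) and Pou3f1 (0.13). An alternative chosen after seeing the data, all SIT libraries but those of NT7.2, turned Pou3f1 (0.035). Mpped1 in the left hippocampus was -0.0010 without the filter, and Man1a between isolations was 0.017 with all 8 SIT libraries. With 1 library left out, the log2 changes that turned ranged from -0.24 to 0.011 for Wfs1 and -0.20 to 0.096 for Pou3f1 in SIT, from -0.036 to 0.032 for Mpped1 and -0.021 to 0.29 for Man1a on the left, from -0.0098 to 0.27 for Man1a on the right, and in the interaction from -0.15 to 0.0084 for Fibcd1, -0.17 to 0.054 for Pou3f1 and -0.16 to 0.18 for Man1a. Man1a in SIT ranged from 0.09 to 0.49 and Wfs1 on the right from 0.26 to 0.39. Leaving out a sedentary SIT library left 1, which is then taken to vary like the ELE libraries. The cause of these changes was not tested.

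A replicate block made from the first part of the mouse number (such as TG9.1) brought Man1a in SIT past the call (0.52 ± 0.18, unadjusted p = 0.0146, edgeR adjusted p = 0.796), where the ELE arm is 1 library (NT6.303) against NT6.305 and NT6.306, and changed no other member's call. It called 1011 genes in SIT, 353 on the left and 332 on the right, 453 over both hemispheres, 239 between hemispheres and 437 in the interaction. The isolation comparison could not be fitted with it, since SIT and separate libraries share no such number. The pairing is not given by the labels, and deviations of mice with the same number correlated at 0.18, 0.016 and 0.10 on the left and 0.21, -0.069 and -0.090 on the right. Between such mice Wfs1 was higher in ELE in 5 of 6 pairs (-0.05 to 0.38 on the log2 scale), Fibcd1 in 1, Mpped1 in 2, Pou3f1 in 1 and Man1a in 4.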

Other observations

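The genes most like a member over the 20 libraries were also compared in the 17 libraries used. For Wfs1, Chgb, a granin of secretory vesicles, had r of 0.81 over 20 libraries and 0.80 over 17, and Tubb4a, a tubulin, had 0.81 and 0.79. For Fibcd1, Syt3, a synaptotagmin, had 0.91 and 0.83. For Man1a, Slc16a7, a monocarboxylate transporter, had 0.89 and 0.86. For Mpped1, Tacr3, a tachykinin receptor, had 0.77 and 0.63. These genes were picked as the highest of 14210, and the values are descriptions over points that share libraries.

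The 3 SIT libraries set aside had ratios of the summed members to the summed dentate granule list of 1.304 (NT6.304), 1.36 (NT7.2.3) and 1.59 (NT7.2.4), against 0.798 to 1.31 in the 5 SIT libraries used and 1.40 to 1.81 in the 12 separate libraries.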
